A study of Homo sapiens with 20 samples.

Results

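The comparison set hTCEpi cells given recombinant human SPARC at 0.5 µg/ml for 24 h (SPARC 0.5, 5 samples) against the same cells in medium without added SPARC (control, 5 samples). These are 10 of the 20 samples of the series, chosen by their titles, and the genes described are all those with enough counts to test, 22938 of 60671 gene identifiers. The other samples received SPARC at 0.05 µg/ml (SPARC 0.05) or 5 µg/ml (SPARC 5), 5 of each, and they enter here for the shared estimate of spread and for comparison with the 0.5 µg/ml dose. hTCEpi is 1 telomerase-immortalized line from human corneal epithelium, so every group carries that modification, and all groups grew in the same keratinocyte medium with added calcium chloride. Total RNA was freed of ribosomal RNA with RNase H, copied with random hexamers and sequenced as paired reads. The labels do not say whether the 5 samples of a group came from separate cultures, so the p-values measure only the spread between these samples, which may be technical.

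SPARC is a secreted glycoprotein of the extracellular matrix that binds collagen and calcium and modulates how cells attach to matrix, repair wounds and respond to growth factors. In the cornea it is found in healing wounds. Fibronectin and thrombospondin are deposited early in wounds of the corneal surface, and TGF-beta, which is stored in matrix in a latent form and freed by integrins and thrombospondin, raises the transcription of many matrix genes through SMAD proteins. Cholesterol synthesis is governed by a different circuit, in which SREBP transcription factors are held in the endoplasmic reticulum by INSIG proteins when sterols are plentiful and raise the genes of the whole pathway when sterols run low.

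Total counts were 31.96 to 50.11 M per library, 40.9 ± 6.63 M at SPARC 0.5 and 34.9 ± 3.09 M in control (mean ± SD, n = 5 each; 2-sided exact permutation test, p = 0.103). Levels are in CPM, the count of a gene relative to the library total, adjusted for composition with trimmed means of M values. Mean levels carry the SD of 5 samples, and log2 fold changes carry the SE. The line carried the epithelial keratin KRT5 (11280 ± 232 CPM at SPARC 0.5, 11320 ± 354 CPM in control) and PAX6 (7.72 ± 0.7898 and 7.66 ± 0.954 CPM), the regulator of eye identity, whereas the corneal keratin KRT12 was near 0 (0 to 0.0262 CPM at SPARC 0.5, 0 to 0.112 CPM in control). ALDH3A1, the corneal crystallin enzyme, stood at a low level and did not overlap between the groups, with 5.87, 5.48, 4.81, 5.72 and 5.06 CPM at SPARC 0.5 and 6.604, 5.98, 6.94, 7.41 and 7.52 CPM in control, but was not called (−0.36 ± 0.12, adjusted p = 0.0849). The stromal markers KERA and LUM had no counts in the 10 libraries, and the 9 stromal markers summed to 5.03 to 8.96 CPM at SPARC 0.5 and 5.497 to 8.17 CPM in control. The 8 immune markers summed to 1.91 to 2.81 CPM at SPARC 0.5 and 2.17 to 3.02 CPM in control. The 10 markers of endothelial cells and melanocytes summed to 10.2 to 11.96 CPM at SPARC 0.5 and 11.89 to 14.28 CPM in control. Of the 7 genes tested in the gene list of these cells, which has 12 members, 1 was above 0 on the log2 scale, with a median of −0.27. None was called and 3 fell at an unadjusted p under 0.05, beside 1468 falls among all 22938 genes tested. MITF, which melanocytes share with other cells, made up most of that sum (6.55 CPM at SPARC 0.5, 7.35 CPM in control), and the endothelial genes PECAM1, CDH5, VWF and KDR averaged under 1 CPM in both groups. The gene SPARC itself had 2, 9, 0, 4 and 2 counts in the SPARC 0.5 libraries and 2, 1, 12, 10 and 10 counts in the control libraries, too few to test. For the library without a count, 3 counts would have been 0.0599 CPM, a limit that covers counting error only.

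Libraries also differed in how levels followed the base composition of genes, and this difference moved with the groups. The correlation of log2 CPM with GC content across genes, relative to the mean of the 20 libraries, was −0.0592 ± 0.0418 at SPARC 0.5 and 0.125 ± 0.105 in control (mean ± SD, n = 5 each). The SPARC 0.5 libraries lay between −0.121 and −0.0215 and the control libraries between −0.0156 and 0.261, so that the groups did not overlap (2-sided exact permutation test, p = 0.00794, the smallest that 5 against 5 samples allow, adjusted p = 0.0238 over 3 library values). The difference was not particular to the 0.5 µg/ml dose. The SPARC 0.05 libraries lay between −0.0772 and 0.0097 and the SPARC 5 libraries between −0.121 and 0.109, where replicate 2 was the highest. Genes are not independent points in such a correlation, and the effect of the treatment and that of library composition on GC-rich or GC-poor genes cannot be told apart by this design. For that reason each gene named below was also fitted with a correction for GC content and transcript length, and results that did not pass with it are given with that value.

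**Figure D1:**
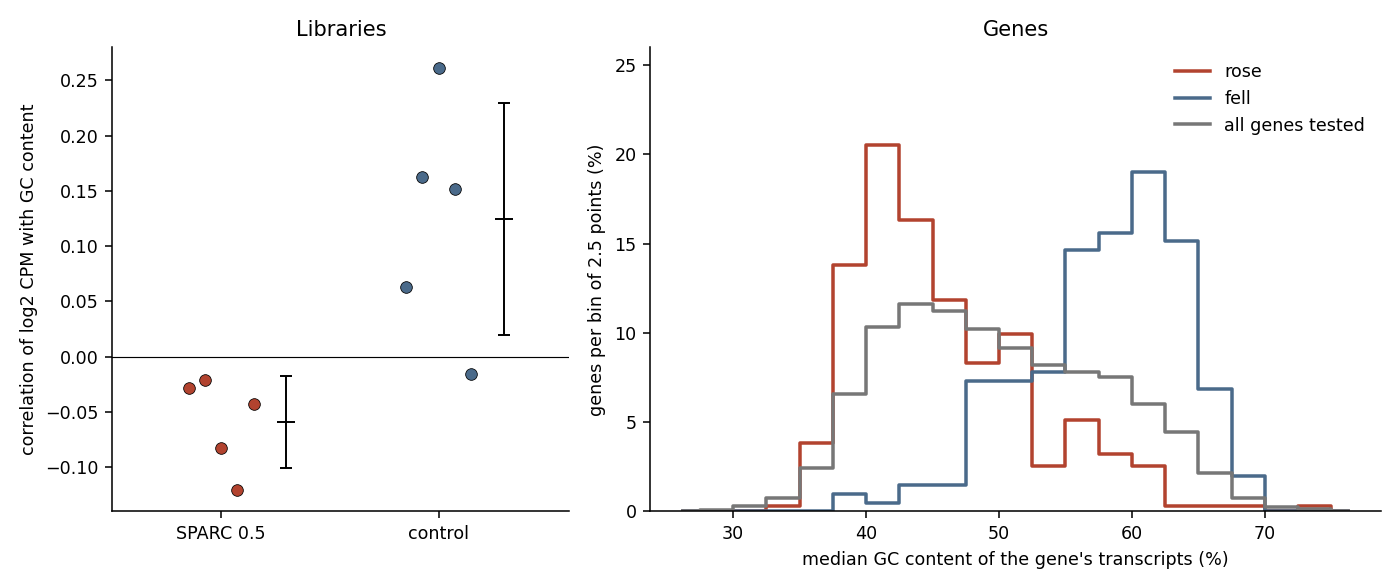
Left, the correlation across genes of log2 CPM with GC content in each library (points; SPARC 0.5 left, control right; bars are mean ± SD, n = 5). Right, the share of genes (%) per bin of median transcript GC content (%) among genes that rose, genes that fell and all genes tested. The SPARC 0.5 libraries all lie below the control libraries, and the genes that rose have a median of 44.1% GC, those that fell 58.7% and all genes tested 49%.

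At SPARC 0.5 the rises included 10 of 21 enzymes of sterol synthesis and 9 of 30 matrix genes. They also included 8 of 25 YAP/TAZ targets and 6 of 23 TGF-beta targets and feedback genes. These lists were written with earlier results of these data known, so the shares are descriptions only. They also share members: TGFBI and LTBP2 count as matrix genes and TGF-beta targets, and CCN1 and FSTL1 as matrix genes and YAP/TAZ targets. The fibronectin gene FN1 was the largest rise among genes that averaged 5 CPM or more. TERT, the translation factor gene EEF1D, the GTPase gene RAB26 and the growth factor gene VEGFA fell. Of the 22938 genes tested, 517 (2.25%) passed an adjusted p of 0.05 in edgeR's quasi-likelihood test. Of these, 312 (1.36%) rose and 205 (0.894%) fell. The changes were small. The median log2 fold change was 0.14 among the rises and −0.23 among the falls, 123 of the 517 (23.8%) were past 1.2-fold, and 38 were past 1.5-fold, of which 3 averaged 5 CPM or more. In 326 of the 517 called genes all 5 SPARC 0.5 samples lay beyond all 5 control samples, against 711 (3.1%) of all genes tested. Of the called genes 463 were protein coding and 35 were long noncoding RNAs. At an unadjusted p under 0.05, 1700 of the 22938 genes rose and 1468 fell, the background for counts at that p in the gene lists.

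The balance of the directions depended on the scaling. With trimmed means 60.3% of the called genes rose. With library sizes only 577 genes were called and 28.6% of them rose (165 against 412 that fell), with the median of all genes at −0.028 in place of −0.004 on the log2 scale. With the correction for GC content and length 442 were called and 77.8% of them rose. Of the 517 genes, 259 kept their call under that correction, 172 of the rises and 87 of the falls, and none was called in the opposite direction. Leaving out 1 library at a time gave between 267 calls (without SPARC 0.5 replicate 4) and 608 calls (without control replicate 5), and 333 without control replicate 3. Of these genes, 170 were called in all 10 of these fits, 108 of them rises. In data simulated for this comparison at these depths, the test recovered 50% of genes changed by 0.2 on the log2 scale, 84% of those changed by 0.3 and 88% of those changed by 0.4. The changed genes were drawn from those averaging 5 CPM or more, and no GC difference between the groups was simulated. Recovery among genes of lower level was not tested.

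**Figure D2:**
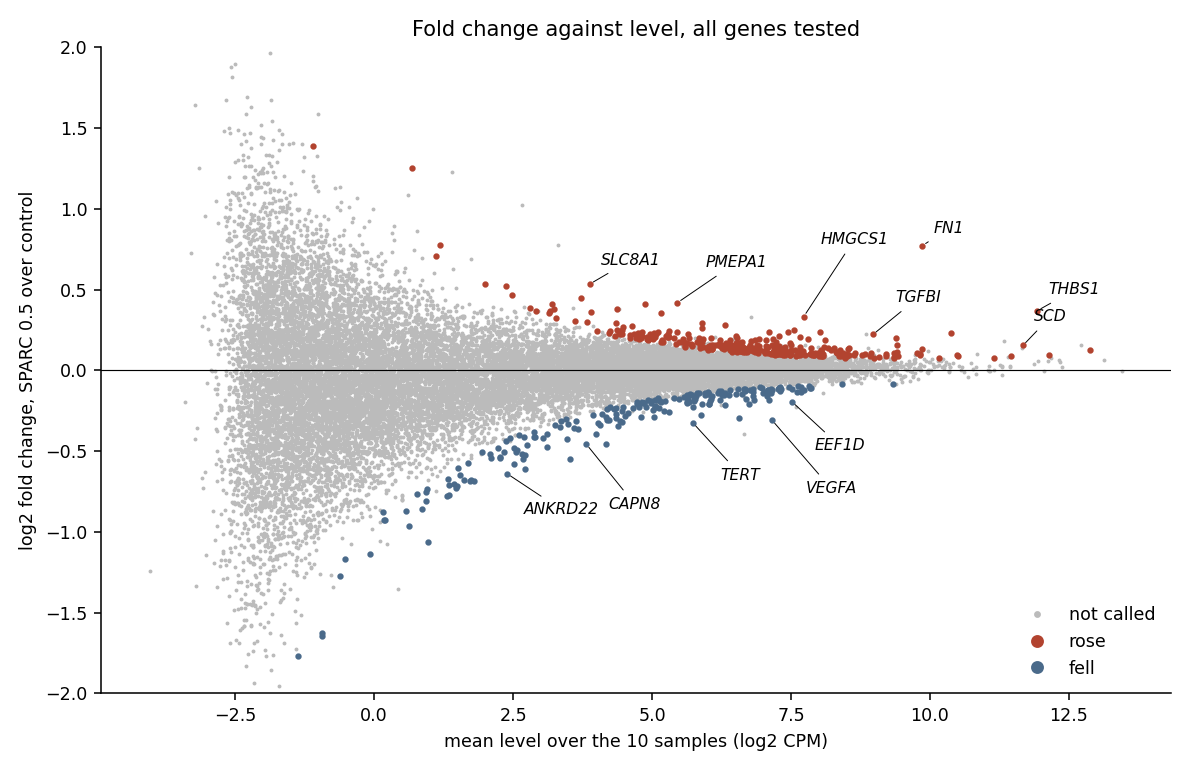
Log2 fold change of SPARC 0.5 over control (vertical) against the mean level of the gene over the 10 samples (log2 CPM, horizontal) for all genes tested; colours mark genes that rose or fell at adjusted p under 0.05, and 14 genes lie outside the range of ±2. Most called genes with higher levels lie within a narrow band around 0, and FN1 stands above it at a log2 fold change of 0.77.

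Genes of the extracellular matrix held 9 rises and 2 falls among 30 members tested, with a median log2 fold change of 0.145, beside −0.004 over all genes tested. The count of rises was 9 with library sizes only, 9 with the GC correction and 8 to 11 with 1 library left out. FN1 (ENSG00000115414, chromosome 2, 215360440 to 215436172, GRCh38), which encodes fibronectin, the glycoprotein of the provisional wound matrix, had 1055, 1237, 1214, 1173 and 1198 CPM in the SPARC 0.5 samples and 643, 656, 684, 692 and 767 CPM in the controls. Every treated sample lay above every control, the nearest values being 1055 and 767 CPM. The log2 fold change was 0.77 ± 0.058 (SE; 95% interval 0.65 to 0.90; adjusted p = 6.38e-07), or 1.71-fold. THBS1, the matricellular protein thrombospondin that activates latent TGF-beta, had 4386, 4353, 4276, 4330 and 4728 CPM at SPARC 0.5 and 3824, 3104, 3155, 3276 and 3726 CPM in control. The groups did not overlap, and control replicates 1 and 5 were the nearest to the treated samples (0.37 ± 0.055, adjusted p = 0.00139).

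The starts of both genes are shown because these 2 had the most counts, not adjusted for transcript length, of the matrix genes that rose. Each window holds the 250 bases before and the 50 bases after the annotated start, from RefSeq on GRCh38.p14, on the strand of the gene. FN1 is at chr2:215436019-215436318 on the minus strand and THBS1 at chr15:39580829-39581128 on the plus strand. Capitals mark matches on either strand to CCAAT, the box bound by NF-Y, whose match on the opposite strand reads ATTGG, and to TGACGTCA, the palindrome of cAMP response elements.
FN1: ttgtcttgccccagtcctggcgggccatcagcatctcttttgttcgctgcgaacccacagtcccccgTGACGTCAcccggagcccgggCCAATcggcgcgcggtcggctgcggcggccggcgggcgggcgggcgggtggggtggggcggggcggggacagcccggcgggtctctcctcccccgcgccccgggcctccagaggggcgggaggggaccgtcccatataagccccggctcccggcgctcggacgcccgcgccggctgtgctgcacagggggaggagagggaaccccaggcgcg
THBS1: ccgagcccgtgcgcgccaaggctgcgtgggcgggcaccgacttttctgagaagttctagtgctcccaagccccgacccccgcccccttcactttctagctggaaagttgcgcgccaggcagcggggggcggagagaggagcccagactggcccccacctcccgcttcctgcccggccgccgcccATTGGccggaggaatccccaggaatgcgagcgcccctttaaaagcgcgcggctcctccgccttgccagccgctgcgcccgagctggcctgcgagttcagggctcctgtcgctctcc
CCAAT occurred in 34.6% of the 34943 promoter windows of the same length and TGACGTCA in 1.84%. Of the 9 matrix genes that rose, 8 had a window; 3 of these held CCAAT and 1, FN1, held TGACGTCA. The 2 motifs share no base in the window of FN1, TGACGTCA reads the same on both strands, and a match is a string of letters, not evidence of binding.

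TGFBI, a matrix protein abundant in the corneal epithelium and stroma, whose gene is mutated in stromal dystrophies, had the smallest p of the matrix genes, with 553, 533, 538, 533 and 552 CPM at SPARC 0.5 and 469, 475, 462, 454 and 461 CPM in control. All 5 treated samples lay above all controls, the nearest values being 533 and 475 CPM (0.22 ± 0.022, adjusted p = 3.65e-12). CCDC80, a secreted protein that binds matrix, had 31.5, 37.3, 31.98, 33.2 and 33.96 CPM at SPARC 0.5 and 23.2, 28.8, 23.9, 23.98 and 26.5 CPM in control (0.41 ± 0.060, adjusted p = 4.52e-06), again with no overlap. COL12A1, a collagen that decorates fibrils of other collagens, averaged 293 ± 9.09 CPM at SPARC 0.5 and 257 ± 12.9 CPM in control (0.19 ± 0.033, adjusted p = 0.001). LTBP2, a latent TGF-beta binding protein family member found on microfibrils, averaged 115 ± 3.12 CPM at SPARC 0.5 and 104 ± 4.6 CPM in control (0.14 ± 0.032, adjusted p = 0.00304). For LTBP2 control replicate 5 was the lowest of the 10 samples at 95.5 CPM, and the groups did not overlap. CCN1, a matricellular ligand of integrins and a target of YAP, had 186, 205, 203, 209 and 218 CPM at SPARC 0.5 and 173, 163, 166, 167 and 188 CPM in control, where the lowest treated sample, 186 CPM, lay below the highest control, 188 CPM (0.25 ± 0.051, adjusted p = 0.0123).

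Among the rest of the matrix list, COL10A1, a short-chain collagen, rose by 0.71 ± 0.20 (adjusted p = 0.0404) at a mean of 2.66 CPM, but it was not called in 8 of the 10 fits with a library left out, all but those without control replicate 1 or 5 (adjusted p = 0.0528 to 0.2), or with only the 2 groups compared (0.113). COL16A1, a fibril-associated collagen, fell by 0.11 (adjusted p = 0.0481), and it was not called with the GC correction (−0.050, 0.512), with DESeq2 (0.0576), with limma-trend (0.057) or in 7 of the 10 fits with a library left out, all but those without SPARC 0.5 replicate 1 or control replicate 1 or 5 (0.0606 to 0.222). Members of the SPARC family itself were mostly near the limit of detection. FSTL1, a secreted relative of SPARC, was the exception, with 41.3, 41.9, 41.5, 37.9 and 38.4 CPM at SPARC 0.5 and 30.5, 31.7, 30.6, 30.7 and 33.9 CPM in control and no overlap (0.35 ± 0.050, adjusted p = 4.8e-07). SMOC1, a basement membrane member of the family, averaged 1.45 ± 0.254 CPM at SPARC 0.5 and 2.39 ± 0.313 CPM in control (−0.73 ± 0.21, adjusted p = 0.0442). It was the other matrix gene that fell. Its call held in 1 of the 10 fits with a library left out, that without SPARC 0.5 replicate 1, the adjusted p lying between 0.0513 and 0.147 in the others, and it was 0.0643 with the GC correction (log2 fold change −0.70), 0.0979 without a filter and 0.0506 with limma-trend. SPOCK1, SPOCK2 and SPARCL1 averaged 0.567, 0.851 and 0.416 CPM at SPARC 0.5 and 0.585, 0.989 and 0.267 CPM in control, and none of these 3 was called. SPOCK3 had 0, 14, 20, 4 and 23 counts in the SPARC 0.5 libraries and 2, 2, 1, 2 and 2 counts in the control libraries. The groups overlapped through treated replicate 1, and the gene was not called (2.41 ± 0.82, adjusted p = 0.101, and 0.0649 to 0.289 with 1 library left out).

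Basement membrane and hemidesmosome genes held 4 rises and no fall among 24 members, with a median of 0.03. The count of rises was 1 to 4 with 1 library left out (1 without SPARC 0.5 replicate 5), 2 with library sizes only and 7 with the GC correction. LAMA3 and LAMB3 encode chains of the laminin that anchors the corneal epithelium. LAMA3 averaged 714 ± 28.04 CPM at SPARC 0.5 and 639 ± 37.7 CPM in control (0.16 ± 0.040, adjusted p = 0.0409). With 1 library left out it was called without control replicate 1 or 5 and in none of the other 8 fits (adjusted p = 0.055 to 0.0906), and not with the GC correction (0.15, 0.0627) or library sizes only (0.0861). LAMB3 averaged 878 ± 63.7 CPM at SPARC 0.5 and 822 ± 82.3 CPM in control (0.094 ± 0.068, adjusted p = 0.614). COL4A1, a chain of basement membrane collagen and a binding partner of SPARC, averaged 177 ± 1.45 CPM at SPARC 0.5 and 163 ± 8.99 CPM in control (0.12 ± 0.029, adjusted p = 0.0109; 0.0777 without control replicate 1 and 0.0516 with library sizes only).

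Among integrins and focal adhesion genes 3 of 26 rose and none fell, with a median of 0.037. There were 2 or 3 rises with 1 library left out and 6 with the GC correction. ITGB6 (ENSG00000115221, chromosome 2, 160099666 to 160200313), the epithelial subunit that with the alpha-V chain binds fibronectin and frees latent TGF-beta, had 61.5, 67.7, 68.7, 67.03 and 64.5 CPM at SPARC 0.5 and 54.6, 55.1, 51.3, 54.8 and 53.03 CPM in control. The lowest treated sample, 61.5 CPM, stood above the highest control, 55.1 CPM (0.29 ± 0.038, adjusted p = 2.3e-08). ITGB1, the common beta chain and a reported receptor of SPARC, averaged 937 ± 24.2 CPM at SPARC 0.5 and 877 ± 23.5 CPM in control (0.095 ± 0.021, adjusted p = 0.00408; 0.062, 0.0995, with the GC correction). ITGB5 averaged 112 ± 1.98 CPM at SPARC 0.5 and 102 ± 7.09 CPM in control (0.14 ± 0.033, adjusted p = 0.0116; 0.0703 without control replicate 1 and 0.0578 without control replicate 5). The partner chain ITGAV differed by 0.078 ± 0.031 (adjusted p = 0.191) and the fibronectin receptor chain ITGA5 by −0.046 ± 0.038 (adjusted p = 0.667), neither past the threshold.

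Ligands and receptors of TGF-beta held 2 rises among 17 members and no fall, and the targets and feedback genes 6 rises among 23 and no fall (1 or 2 and 5 to 7 rises with 1 library left out). The ligand genes TGFB1 and TGFB2 differed by 0.055 ± 0.027 and −0.096 ± 0.075 on the log2 scale (adjusted p = 0.345 and 0.638). Both receptor rises were small. BMPR2, a receptor of bone morphogenetic proteins, differed by 0.16 ± 0.036 (adjusted p = 0.00595; 0.12, 0.0685, with the GC correction). TGFBR1, the signalling receptor of TGF-beta, differed by 0.14 ± 0.039 (adjusted p = 0.0279; 0.12, 0.104, with the GC correction). It was not called without SPARC 0.5 replicate 1, 4 or 5 or control replicate 1, 3 or 4 (adjusted p = 0.0553 to 0.112) or with library sizes only (0.0825).

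Among the targets, PMEPA1, a membrane protein that restrains SMAD signalling, had the smallest p after TGFBI, with 49.7, 46.9, 51.5, 54.1 and 49.03 CPM at SPARC 0.5 and 35.4, 36.2, 37.9, 36.9 and 41.6 CPM in control, with control replicate 5 the nearest to the treated range and no overlap (0.42 ± 0.046, adjusted p = 5.25e-10). SMURF2, a ubiquitin ligase that removes TGF-beta receptors, had 87.5, 89.4, 86.2, 92.3 and 92.6 CPM at SPARC 0.5 and 75.7, 77.6, 77.4, 81.2 and 81.4 CPM in control, also without overlap (0.19 ± 0.034, adjusted p = 0.000269). BHLHE40, a transcriptional repressor that is also part of the circadian clock, averaged 64.7 ± 1.78 CPM at SPARC 0.5 and 53.97 ± 1.497 CPM in control (0.26 ± 0.041, adjusted p = 9.83e-06). SKIL, a SMAD corepressor, differed by 0.18 ± 0.043 (adjusted p = 0.0117), which became 0.0931 without SPARC 0.5 replicate 4, 0.0723 without control replicate 3 and 0.117 with the GC correction (log2 fold change 0.12). TGFBI and LTBP2 are the other 2 of the 6. The inhibitory SMAD7 averaged 14.01 ± 1.46 CPM at SPARC 0.5 and 13.99 ± 1.75 CPM in control (adjusted p = 0.989) and was not called.

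**Figure D3:**
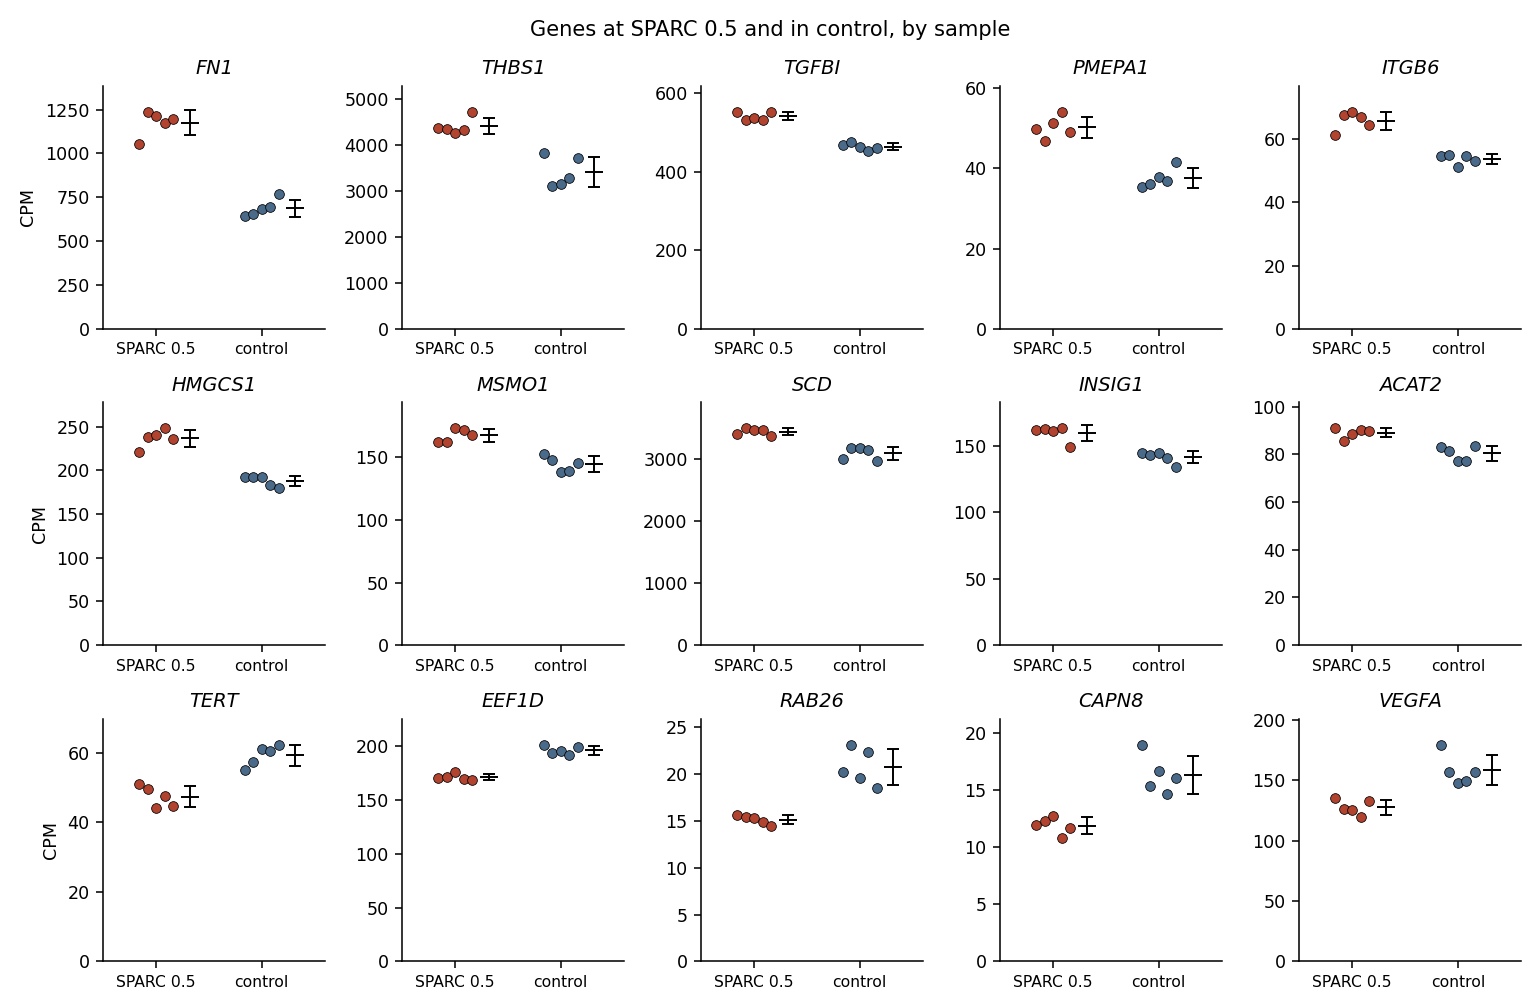
CPM of 15 genes in each sample (points; SPARC 0.5 left, control right; black marks are mean ± SD, n = 5 per group), with every axis starting at 0. Top row, matrix and TGF-beta genes; middle row, sterol and fatty acid genes; bottom row, genes that fell. In all 15 panels the 2 groups do not overlap. The 15 were chosen from the called genes, of which 326 of 517 do not overlap, beside 711 (3.1%) of all genes tested.

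YAP/TAZ targets held 8 rises and no fall among 25 members (median 0.087), and 10 rises with the GC correction, 6 with library sizes only and 5 to 10 with 1 library left out (5 without SPARC 0.5 replicate 2). TEAD1, the DNA-binding partner of YAP, had 390.3, 388, 396, 389 and 383 CPM at SPARC 0.5 and 360.4, 348, 340.3, 353 and 368 CPM in control, with a narrow treated range above all controls (0.14 ± 0.023, adjusted p = 6.28e-05). LPP, a protein of focal adhesions, and ASAP1, a regulator of Arf GTPases, differed by 0.14 ± 0.030 and 0.13 ± 0.026 (adjusted p = 0.00176 and 0.000934). CCN1 and FSTL1, described with the matrix genes, are also on this list. CCN2, a further target, averaged 18.5 ± 1.09 CPM at SPARC 0.5 and 15.97 ± 1.48 CPM in control and was not called (0.21 ± 0.071, adjusted p = 0.0923).

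Actin and SRF targets held 6 rises and no fall among 24 members (median 0.053), 12 rises with the GC correction, 3 with library sizes only and 2 to 7 with 1 library left out (2 without control replicate 1). TPM4, a tropomyosin of stress fibres, had 373, 386, 392, 387 and 389 CPM at SPARC 0.5 and 352, 344, 334, 359.9 and 368 CPM in control with no overlap (0.13 ± 0.025, adjusted p = 0.000339). CALD1, the actin-binding caldesmon, averaged 159 ± 3.24 CPM at SPARC 0.5 and 144 ± 7.34 CPM in control (0.15 ± 0.029, adjusted p = 0.000755). CNN3, a calponin, averaged 41.99 ± 1.63 CPM at SPARC 0.5 and 36.3 ± 3.33 CPM in control (0.21 ± 0.050, adjusted p = 0.00875; 0.0855 without control replicate 1). The motor MYH9 differed by 0.078 ± 0.019 (adjusted p = 0.0118), which was 0.0563 without SPARC 0.5 replicate 4, 0.057 without control replicate 1 and 0.102 with library sizes only, and its log2 fold change was 0.13 with the GC correction.

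Other genes among those with the smallest p belong to no single pathway. SLC8A1, a sodium-calcium exchanger, had 16.7, 18.1, 16.3, 18.8 and 17.4 CPM at SPARC 0.5 and 10.98, 10.4, 13.2, 11.8 and 13.8 CPM in control (0.54 ± 0.075, adjusted p = 4.71e-07). FAT4, a giant cadherin of planar polarity, averaged 149 ± 2.29 CPM at SPARC 0.5 and 127 ± 4.79 CPM in control (0.24 ± 0.029, adjusted p = 1.16e-08). In both genes every treated sample lay above every control. PRSS23, a secreted serine protease, differed by 0.24 ± 0.026 (adjusted p = 1.29e-10). AMIGO2, an adhesion molecule of the leucine-rich repeat type, had 188, 179, 192, 190.1 and 193 CPM at SPARC 0.5 and 164, 153, 156, 163 and 165 CPM in control and did not overlap either (0.24 ± 0.028, adjusted p = 1.83e-09). APLN, the secreted peptide apelin, averaged 15.2 ± 1.34 CPM at SPARC 0.5 and 11.1 ± 1.797 CPM in control (0.45 ± 0.095, adjusted p = 0.0036), and it was among the largest rises of genes with at least 5 CPM. FLRT2, a membrane ligand of UNC5 guidance receptors, differed by 0.38 ± 0.059 (adjusted p = 6.75e-06).

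KRT7, a keratin of simple and conjunctival epithelia, had 691, 736, 727, 717 and 711 CPM at SPARC 0.5 and 557, 647, 651, 641 and 617 CPM in control, with control replicate 1 the lowest (0.20 ± 0.027, adjusted p = 5.99e-06). It stands on the list of conjunctival and goblet cell markers, where 1 of the 7 members tested rose and none fell. KRT7 was the 1 member of the 7 with a log2 fold change above 0, and the median was −0.049. The 10 markers of that list summed to 1002 to 1052 CPM at SPARC 0.5 and 861 to 983 CPM in control. KRT7 accounted for most of each sum, while KRT18 averaged 299.8 CPM at SPARC 0.5 and 304.9 CPM in control and KRT8 11.23 and 11.64 CPM. The goblet cell genes MUC5AC and SPDEF, the mucin MUC4 and the keratin KRT19 were below 1 CPM in each of the 10 libraries. The mucin MUC16 averaged 0.493 ± 0.79 CPM at SPARC 0.5 (0 to 1.887 CPM) and 0.0776 ± 0.0487 CPM in control (0 to 0.1175 CPM). TFF3 averaged 0.844 CPM in both groups, and AGR2 averaged 1.188 CPM at SPARC 0.5 and 1.435 CPM in control. MUC5AC averaged 0.0608 CPM at SPARC 0.5 and 0.0534 CPM in control. The part of other cell types in the level of KRT7 was not tested. In bulk RNA a change in the share of a cell type and a change in RNA per cell cannot be told apart.

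In the list of sterol synthesis enzymes 10 of 21 members rose and none fell (13 rises and 1 fall at an unadjusted p under 0.05; 11 and 0 by DESeq2, 10 and 0 by limma), with a median of 0.086. The count was 10 with the GC correction, 5 with library sizes only and 6 to 10 with 1 library left out (6 without SPARC 0.5 replicate 1). HMGCS1 (ENSG00000112972, chromosome 5, 43289395 to 43313512), which makes the HMG-CoA that enters the mevalonate pathway, had 221, 238, 240.3, 248 and 236 CPM at SPARC 0.5 and 193, 192, 192, 183 and 179.9 CPM in control. Every treated sample lay above every control, the nearest being 221 and 193 CPM (0.33 ± 0.029, adjusted p = 4.54e-15), the smallest p of any gene in the comparison. MSMO1, a demethylase of the late pathway, had 162, 162, 173, 172 and 168 CPM at SPARC 0.5 and 153, 148, 138, 139 and 146 CPM in control (0.21 ± 0.031, adjusted p = 1.44e-06). IDI1, the isomerase that makes dimethylallyl diphosphate, and ACAT2, the thiolase of the first step, differed by 0.19 ± 0.044 and 0.15 ± 0.034 (adjusted p = 0.00529 and 0.007).

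A further 4 rises of the pathway were weaker. DHCR7, SQLE, FDFT1 and SC5D differed by 0.086, 0.094, 0.078 and 0.13 on the log2 scale, and none of these 4 was called with library sizes only (adjusted p = 0.0915 to 0.228). DHCR7 was also lost without SPARC 0.5 replicate 1 or 2 or control replicate 4 or 5 (0.0553 to 0.0768). SQLE was lost without SPARC 0.5 replicate 1 or 4 or control replicate 3 or 4 (0.0516 to 0.0875). SC5D was lost without SPARC 0.5 replicate 1, 2 or 4 or control replicate 2 or 3 (0.0519 to 0.156). FDFT1 was lost without any library other than control replicate 1 (0.0523 to 0.107) and with only the 2 groups compared (0.0519). With the GC correction SQLE and SC5D were not called (0.056 and 0.086, 0.265 and 0.236) and DHCR7 stood at 0.14. Without a filter DHCR7, SQLE and FDFT1 were not called (0.0516 to 0.171). LSS, the cyclase that makes lanosterol, averaged 292 ± 10.9 CPM at SPARC 0.5 and 288 ± 16.3 CPM in control and was not called (adjusted p = 0.832).

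Genes that govern the pathway behaved unevenly. INSIG1, which retains SREBP in the endoplasmic reticulum and is itself a sterol-responsive gene, had 162, 163, 162, 163 and 149 CPM at SPARC 0.5 and 145, 143, 145, 141 and 135 CPM in control, with treated replicate 5 the closest to the controls and no overlap (0.17 ± 0.030, adjusted p = 8.04e-05). ABCG1, an exporter of cholesterol that is raised by oxysterols, fell, with 18.8, 17.2, 15.6, 14.7 and 16.9 CPM at SPARC 0.5 and 23.1, 20.8, 18.3, 19.95 and 20.7 CPM in control and treated replicate 1, at 18.8 CPM, above the lowest control, 18.3 CPM (−0.31 ± 0.069, adjusted p = 0.00377). The factor gene SREBF2 differed by −0.026 ± 0.024 (adjusted p = 0.713). In the list of SREBP control, sterol uptake and export, INSIG1 and ABCG1 were the 2 of 16 members called.

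Among fatty acid genes 3 of 21 rose and none fell (median 0.057; 1 or 2 with 1 library left out, 6 with the GC correction). SCD, the desaturase that makes oleate, had 3399, 3494, 3474, 3462 and 3368 CPM at SPARC 0.5 and 2992, 3180, 3174, 3146 and 2965 CPM in control, where the lowest treated sample exceeded the highest control (0.15 ± 0.019, adjusted p = 8.02e-09). ACSL3, a synthetase that activates fatty acids, and ELOVL6, an elongase, differed by 0.087 ± 0.026 and 0.11 ± 0.031 (adjusted p = 0.0498 and 0.0381), and neither was called with library sizes only (0.21 and 0.132), with the GC correction (0.050 and 0.092, 0.399 and 0.112) or without a filter (0.125 and 0.0683). ACSL3 was called in 1 of the 10 fits with a library left out, that without SPARC 0.5 replicate 2 (0.0519 to 0.178 in the others). ELOVL6 was called in 3, those without SPARC 0.5 replicate 3 or control replicate 4 or 5 (0.0678 to 0.126 in the others). FASN, the synthase itself, averaged 5227 ± 137 CPM at SPARC 0.5 and 4994 ± 281 CPM in control and was not called (0.066 ± 0.035, adjusted p = 0.44).

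The starts of MSMO1 and INSIG1 are shown as a pathway enzyme and its regulator that have a window in the table and were called under every alternative. MSMO1 is at chr4:165327419-165327718 and INSIG1 at chr7:155297628-155297927, both on the plus strand, from the same RefSeq windows and with the same capitals as above.
MSMO1: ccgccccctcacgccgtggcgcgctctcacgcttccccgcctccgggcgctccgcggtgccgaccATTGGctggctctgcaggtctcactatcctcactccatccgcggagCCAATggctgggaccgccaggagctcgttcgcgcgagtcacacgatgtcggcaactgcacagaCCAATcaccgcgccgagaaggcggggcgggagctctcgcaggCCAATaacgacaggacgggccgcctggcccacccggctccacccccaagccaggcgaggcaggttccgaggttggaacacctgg
INSIG1: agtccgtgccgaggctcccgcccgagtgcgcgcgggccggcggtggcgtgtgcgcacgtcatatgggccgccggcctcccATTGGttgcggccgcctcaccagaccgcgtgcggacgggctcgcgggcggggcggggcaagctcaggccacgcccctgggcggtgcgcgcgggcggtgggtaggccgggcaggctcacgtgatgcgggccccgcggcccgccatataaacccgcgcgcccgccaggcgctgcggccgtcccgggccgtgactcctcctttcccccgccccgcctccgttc
MSMO1 held 4 matches to CCAAT and INSIG1 held 1. Of the 10 enzymes of sterol synthesis that rose, 5 had a window and all 5 of these held CCAAT, beside 34.6% of all windows, and none held TGACGTCA. With 5 windows the share is a description only.

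ER chaperones and unfolded protein response genes held 5 rises and no fall among 23 members (median 0.047; 4 to 7 with 1 library left out, 4 with library sizes only). HSPA5, the chaperone BiP, had 861, 917, 909.6, 910 and 923 CPM at SPARC 0.5 and 819.8, 849, 850, 828 and 848 CPM in control, with treated replicate 1 the closest to the controls and no overlap (0.11 ± 0.022, adjusted p = 0.00106). HSP90B1, its partner in the ER, differed by 0.11 ± 0.023 (adjusted p = 0.00151), MANF, a secreted stress-induced factor, by 0.18 ± 0.041 (adjusted p = 0.00655), and CREB3L2, a transcription factor of secretory cargo and collagen export, by 0.17 ± 0.036 (adjusted p = 0.00228).

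The falls were led by genes of many kinds. TERT (ENSG00000164362, chromosome 5, 1253147 to 1295069), the reverse transcriptase of telomerase, had 51, 49.5, 44.1, 47.6 and 44.7 CPM at SPARC 0.5 and 55.1, 57.3, 61.1, 60.6 and 62.3 CPM in control. All treated samples lay below all controls (−0.33 ± 0.045, adjusted p = 4.38e-07). The line was immortalized with telomerase, and counts from an introduced copy and from the chromosomal gene cannot be told apart. EEF1D, a subunit of the elongation factor that loads aminoacyl-tRNA, had 171, 172, 176, 169 and 169 CPM at SPARC 0.5 and 201, 193, 196, 192 and 199.5 CPM in control (−0.20 ± 0.027, adjusted p = 4.38e-07), the nearest values being 176 and 192 CPM. RAB26, a small GTPase of secretory granules, had 15.6, 15.4, 15.3, 14.9 and 14.5 CPM at SPARC 0.5 and 20.3, 23.1, 19.6, 22.4 and 18.5 CPM in control (−0.46 ± 0.069, adjusted p = 3.61e-06). CAPN8, a calpain protease of epithelia, had 11.96, 12.3, 12.7, 10.8 and 11.7 CPM at SPARC 0.5 and 18.95, 15.3, 16.7, 14.7 and 16 CPM in control (−0.46 ± 0.081, adjusted p = 0.000112). Neither RAB26 nor CAPN8 had a treated sample within the control range.

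VEGFA, the vascular growth factor that SPARC binds as a protein, had 135, 126, 125, 119.9 and 133 CPM at SPARC 0.5 and 179, 157, 148, 149.7 and 157 CPM in control, with control replicate 1 the highest of the 10 and no overlap (−0.31 ± 0.054, adjusted p = 0.00379). CCDC84, a protein of the minor spliceosome and of centrioles, averaged 53.2 ± 2.51 CPM at SPARC 0.5 and 64.5 ± 1.69 CPM in control (−0.28 ± 0.042, adjusted p = 2.7e-06). SUGP2, a splicing-related G-patch protein, and DDX39B, a helicase of mRNA export, differed by −0.18 ± 0.031 and −0.22 ± 0.037 (adjusted p = 5.27e-05 and 6.28e-05). The long noncoding host transcript SNHG17 had 99.5, 99.6, 102, 98.4 and 97.97 CPM at SPARC 0.5 and 112, 114, 123, 113 and 113 CPM in control (−0.21 ± 0.032, adjusted p = 3.87e-06). SPG7, a mitochondrial protease, NAA40, an N-terminal acetyltransferase of histones, and ENOSF1 differed by −0.19 ± 0.032, −0.18 ± 0.032 and −0.21 ± 0.039 (adjusted p = 5.84e-05, 0.000269 and 0.000382). TERT, EEF1D, RAB26, CAPN8, VEGFA, CCDC84, SUGP2, DDX39B, SNHG17, SPG7, NAA40 and ENOSF1 kept their calls under every alternative, the GC correction included.

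Larger folds appeared in genes of low level. ANKRD22, a mitochondrial membrane protein of epithelia, had 5.77, 3.56, 3.96, 3.84 and 3.48 CPM at SPARC 0.5 and 8.55, 6.28, 6.15, 5.29 and 5.64 CPM in control, with treated replicate 1, at 5.77 CPM, above 2 of the controls (−0.64 ± 0.14, adjusted p = 0.00309). PNLIPRP3, a lipase-related gene, had 5.34, 5.03, 5.49, 4.84 and 5.37 CPM at SPARC 0.5 and 8.89, 6.89, 7.93, 7.26 and 7.18 CPM in control, without overlap (−0.55 ± 0.12, adjusted p = 0.00242). The other 4 of the 6 largest falls and 1 of the 6 largest rises with at least 5 CPM have clone-based names and no assigned role. WDPCP, a planar polarity and cilium gene, rose by 0.46 ± 0.12 (adjusted p = 0.0173), which was 0.0553 without SPARC 0.5 replicate 5 and 0.0529, 0.0559 and 0.0688 without control replicates 2, 3 and 4.

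**Figure D4:**
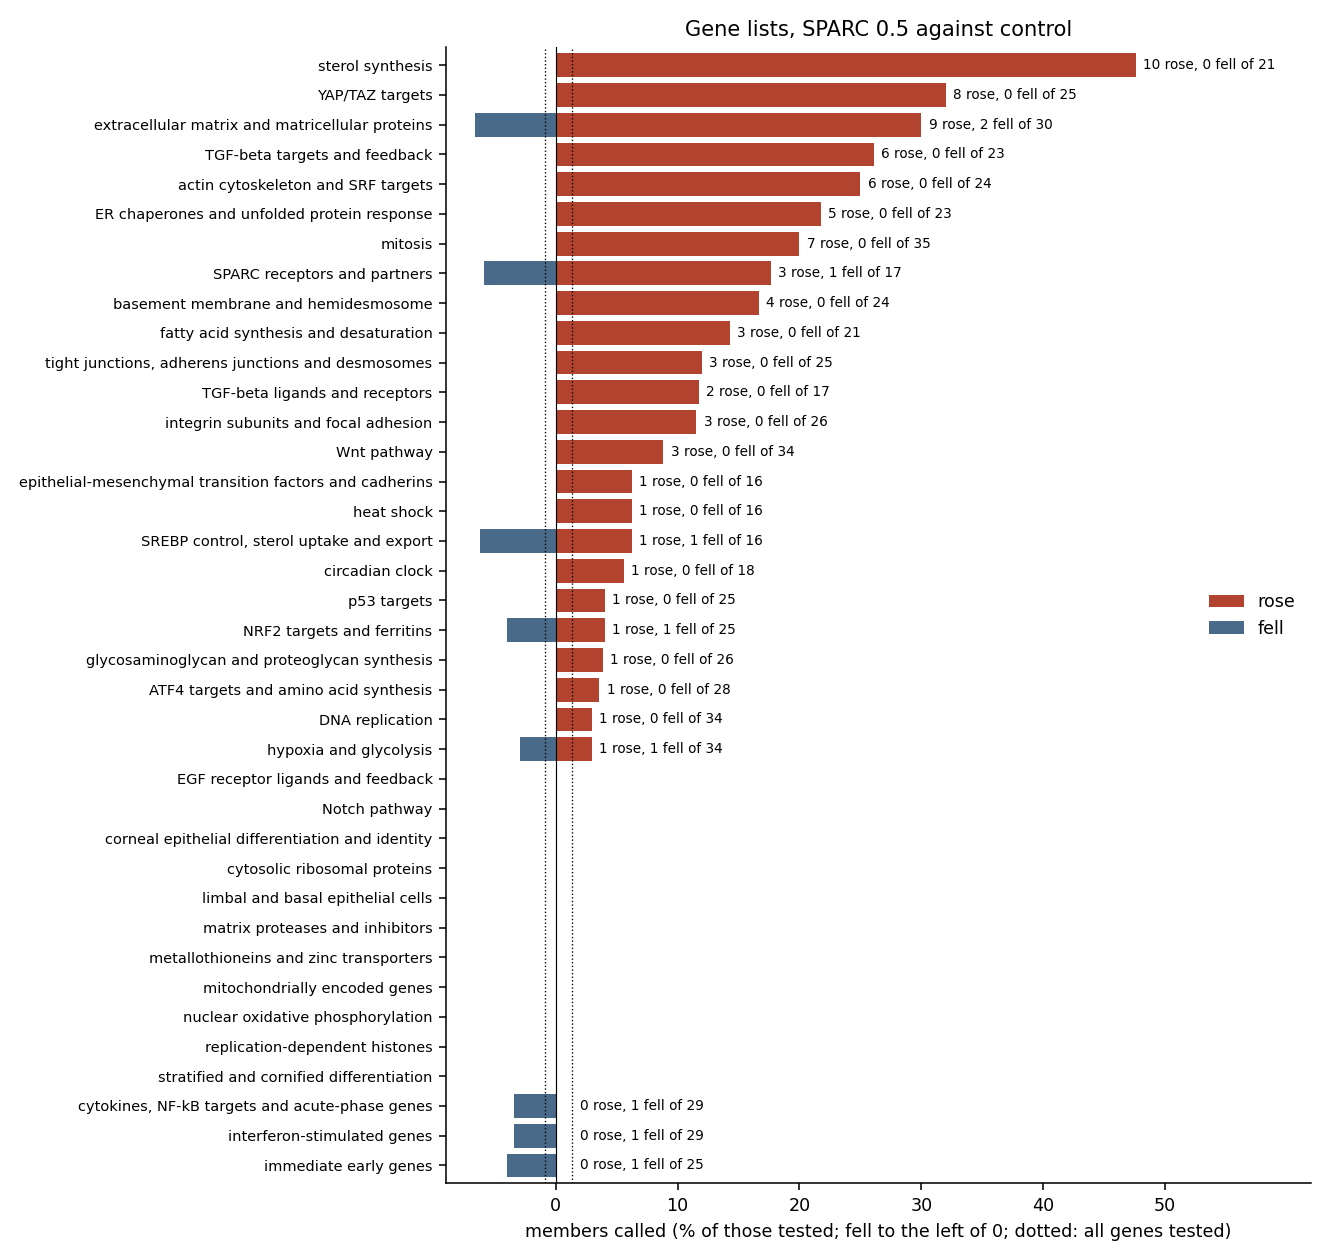
For each gene list, the percentage of tested members that rose (right of 0) or fell (left of 0) at SPARC 0.5 against control; dotted lines mark the share of all genes tested that rose (1.36%) or fell (0.894%). Sterol synthesis has the highest share of rises, 10 of 21, and the lists of limbal, corneal and stratified epithelial genes and of cytokines hold no rise in edgeR's test.

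Epithelial identity genes held no call with trimmed means and all libraries. In the lists of limbal and basal cells (19 tested), corneal identity (18) and stratified differentiation (25) no gene passed the threshold in edgeR's test. At an unadjusted p under 0.05 these 3 lists held 2 rises and 3 falls, 0 rises and 4 falls, and 3 rises and 2 falls, with 1 fall called by DESeq2, in the corneal list, and none by limma. Over all 22938 genes tested, 1700 rose and 1468 fell at that unadjusted p. In the corneal list 5 of 18 members were above 0 on the log2 scale, and 2 fell with library sizes only. The limbal list held 1 fall with library sizes only, 1 rise with the GC correction and up to 2 falls with 1 library left out. The stratified list held up to 1 rise with 1 library left out. KRT15, a keratin of limbal basal cells, averaged 87.04 ± 6.02 CPM at SPARC 0.5 and 114 ± 24.5 CPM in control (−0.39 ± 0.14, adjusted p = 0.18), with control samples between 77.7 and 139.5 CPM. It was called without control replicate 5 (−0.50, adjusted p = 0.0286). Junction genes held 3 rises among 25. TJP1, the tight junction scaffold, differed by 0.13 ± 0.026 (adjusted p = 0.00139). DSP, the desmosomal plakin, differed by 0.077 ± 0.020 (adjusted p = 0.0182). DSP lost its call without SPARC 0.5 replicate 1, SPARC 0.5 replicate 4 or control replicate 5 (0.0575, 0.0827 and 0.105), with library sizes only (0.145) and without a filter (0.0737). The third rise, CTNNB1, which encodes beta-catenin, was called in 2 of the 10 fits with a library left out, those without SPARC 0.5 replicate 5 or control replicate 3 (0.0509 to 0.129 in the others), and not with the GC correction (0.066, 0.11).

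Matrix proteases (23 tested), EGF receptor ligands (21), Notch genes (18), metallothioneins and zinc transporters (16), mitochondrially encoded genes (13), nuclear oxidative phosphorylation subunits (36), ribosomal proteins (42) and histones (33) held no call in edgeR's test. At an unadjusted p under 0.05, 1700 of all 22938 genes tested rose and 1468 fell. At that p, rises and falls numbered 4 and 2 among the proteases, 1 and 0 among EGF receptor genes, 2 and 1 in the Notch list and 4 and 0 among the metallothioneins. They numbered 1 and 0 among mitochondrially encoded genes, 0 and 3 among oxidative phosphorylation subunits, 7 and 0 among ribosomal proteins and 5 and 0 among histones. DESeq2 called 1 rise each among the metallothioneins, the mitochondrially encoded genes and the histones, limma called 1 ribosomal protein gene, and with the GC correction 6 histones, 4 ribosomal protein genes and 1 gene each of the protease, EGF receptor and Notch lists rose. With library sizes only 1 gene each of the protease, Notch and oxidative phosphorylation lists fell. With 1 library left out there was up to 1 fall in the protease and Notch lists, up to 1 rise in the EGF receptor and metallothionein lists and up to 2 rises among histones. In the lists described above with rises and no fall, the falls at an unadjusted p under 0.05 numbered 4 among basement membrane genes and 1 each among sterol synthesis, ER chaperone and junction genes. They numbered 0 in the integrin, TGF-beta, YAP/TAZ, actin, fatty acid and mitosis lists. DESeq2 and limma called no fall in any of these lists. A p that misses the threshold does not show that these genes were unchanged.

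Cytokine and interferon lists held 1 fall each among 29 members and no rise, and DESeq2 and limma called no rise in either. At an unadjusted p under 0.05 they held 0 and 3 rises and 6 falls each, beside 1700 rises and 1468 falls among all 22938 genes tested. Of the 29 members 11 and 10 were above 0 on the log2 scale (medians −0.073 and −0.056). IRAK2, an adaptor of interleukin-1 signalling, averaged 8.41 ± 0.537 CPM at SPARC 0.5 and 10.7 ± 1.66 CPM in control (−0.34 ± 0.098, adjusted p = 0.0405). STAT2, a factor of the interferon response, averaged 24.5 ± 2.25 CPM at SPARC 0.5 and 28.4 ± 1.08 CPM in control (−0.21 ± 0.057, adjusted p = 0.029). The call for IRAK2 was lost without SPARC 0.5 replicate 1, 2, 4 or 5 or control replicate 1 or 4 (0.069 to 0.184) and with limma-trend (0.0556). That for STAT2 was lost without SPARC 0.5 replicate 1 or 2 or control replicate 2, 4 or 5 (0.0606 to 0.146), and neither passed with the GC correction, where the log2 fold changes were −0.32 and −0.19 (0.064 and 0.0572). FTL, the ferritin light chain, fell by 0.12 on the log2 scale (adjusted p = 0.00883; 0.104 without control replicate 2 and −0.076, 0.244, with the GC correction). In the list of NRF2 targets and ferritins, 25 tested, FTL was the 1 fall, beside 1 rise, SLC7A11. SLC7A11 was called in 5 of the 10 fits with a library left out and not with the GC correction (0.084, 0.213).

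Most calls among mitosis genes were lost with the GC correction. Of 35 members 7 rose and none fell (median 0.064; 12 rises and no fall at an unadjusted p under 0.05), and 2 rose with the correction. ANLN, the scaffold of the cytokinetic furrow, averaged 286 ± 9.15 CPM at SPARC 0.5 and 259 ± 8.701 CPM in control (0.15 ± 0.025, adjusted p = 0.000111; 0.00646 with the correction). KIF11, a spindle motor, and CENPF, a kinetochore protein, differed by 0.14 ± 0.032 and 0.13 ± 0.027 (adjusted p = 0.00382 and 0.00358), and with the correction they differed by 0.10 and 0.083 (0.0767 and 0.165). Of 34 DNA replication genes 1 rose, MCM6 (0.095, adjusted p = 0.0492), which was called in 2 of the 10 fits with a library left out. MCM6 was not called with the GC correction (0.067, 0.271), with library sizes only (0.182) or with limma-trend (0.0599). The Wnt list held 3 rises among 34 members, among them the ligand gene WNT5B, which averaged 16.8 ± 1.16 CPM at SPARC 0.5 and 13.1 ± 1.23 CPM in control (0.36 ± 0.077, adjusted p = 0.00235). Lists of p53 targets (25 tested), ATF4 targets (28), heat shock genes (16), clock genes (18), glycosaminoglycan synthesis (26) and epithelial-mesenchymal transition factors (16) held 1 rise each, and that of immediate early genes (25) 1 fall. With the GC correction the rises numbered 2, 1, 0, 1, 5 and 0 in that order, and the immediate early list held 3 rises and no fall. With library sizes only the rises numbered 0, 0, 1, 1, 0 and 0, with 1 fall among p53 targets and 2 among immediate early genes.

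Set against the higher dose, SPARC 0.5 and SPARC 5 differed in 1100 genes (4.8%), of which 341 were higher and 759 lower at SPARC 0.5. With library sizes only the split was 660 higher and 562 lower. The lower genes included 11 of the 30 matrix genes, 13 of the 26 integrin and focal adhesion genes and 12 of the 23 TGF-beta targets and feedback genes. PMEPA1 averaged 50.2 ± 2.73 CPM at SPARC 0.5 and 126 ± 6.05 CPM at SPARC 5 (−1.32 ± 0.044, adjusted p = 1.13e-39). FLRT2 averaged 23.4 ± 1.19 CPM at SPARC 0.5 and 56.7 ± 4.77 CPM at SPARC 5 (−1.28 ± 0.055, adjusted p = 3.64e-36). ITGB6 averaged 65.9 ± 2.92 CPM at SPARC 0.5 and 137 ± 7.14 CPM at SPARC 5 (−1.06 ± 0.036, adjusted p = 3.6e-44). PTPRK, a receptor phosphatase of cell contacts, averaged 113 ± 4.45 CPM at SPARC 0.5 and 192 ± 10.1 CPM at SPARC 5 (−0.76 ± 0.032, adjusted p = 5.99e-36), but at SPARC 0.5 it was not called against control (0.11 ± 0.033, adjusted p = 0.0579). In these lists 1 integrin or focal adhesion gene, no matrix gene and no TGF-beta target was higher at SPARC 0.5.

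Genes that were higher at SPARC 0.5 than at SPARC 5 included GSR, the glutathione reductase (196 ± 5.82 CPM at SPARC 0.5, 153 ± 5.49 CPM at SPARC 5; 0.36 ± 0.027, adjusted p = 9.71e-20). EPCAM, an epithelial adhesion molecule, averaged 85.5 ± 2.72 CPM at SPARC 0.5 and 69.2 ± 1.75 CPM at SPARC 5 (0.31 ± 0.035, adjusted p = 3.11e-11). MAL2, a protein of apical transport, the guidance cue SEMA3A and the nucleoside transporter SLC29A2 were higher by 0.26 ± 0.030, 0.36 ± 0.044 and 0.29 ± 0.037 on the log2 scale (adjusted p = 4.08e-11, 4.58e-10 and 1.85e-09). These genes did not rise over control at SPARC 0.5. Over the alternatives GSR lay at −0.094 to −0.057, EPCAM at −0.044 to −0.000, MAL2 at −0.054 to −0.006 and SEMA3A at −0.103 to −0.046 against control. None of them was called with a library left out. SLC29A2 fell against control, with a call in 5 of the 10 fits with a library left out and none with the GC correction (−0.075, adjusted p = 0.363). Of the 25 NRF2 targets and ferritins tested, 6 were higher at SPARC 0.5 than at SPARC 5 and none was lower. Over all 22938 genes tested, 341 were higher and 759 lower. FTL averaged 205 ± 5.34 CPM at SPARC 0.5 and 173 ± 6.82 CPM at SPARC 5 (0.24 ± 0.030, adjusted p = 1.17e-09).

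FN1 and TGFBI were lower at SPARC 0.5 than at SPARC 5 (−1.11 ± 0.058 and −0.84 ± 0.022, adjusted p = 3.95e-10 and 3.58e-53), while SCD and INSIG1 did not pass that test. Over 0.05, 0.5 and 5 µg/ml, FN1 stood 0.36, 0.77 and 1.88 log2 units over control and TGFBI 0.008, 0.22 and 1.06. SCD stood 0.15, 0.15 and 0.15 and INSIG1 0.16, 0.17 and 0.17. These comparisons share the control samples. Tested directly, SCD differed between SPARC 0.5 and SPARC 5 by 0.002 ± 0.019 (95% interval −0.035 to 0.040, adjusted p = 0.978). Between SPARC 0.5 and SPARC 0.05 the difference was 0.002 ± 0.019 (95% interval −0.035 to 0.040, adjusted p = 0.992). For INSIG1 the interval of the difference was −0.056 to 0.063 against SPARC 5 and −0.045 to 0.073 against SPARC 0.05. HMGCS1 was higher at SPARC 0.5 than at SPARC 5 by 0.10 ± 0.029 (adjusted p = 0.0161). Of the 21 sterol synthesis genes 2 were higher and 1 lower at SPARC 0.5 than at SPARC 5, and none differed from SPARC 0.05. The difference between SPARC 0.5 and SPARC 5 was −0.010 ± 0.054 for VEGFA (95% interval −0.12 to 0.10, adjusted p = 0.969) and −0.051 ± 0.049 for FSTL1 (95% interval −0.15 to 0.045, adjusted p = 0.728).

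**Figure D5:**
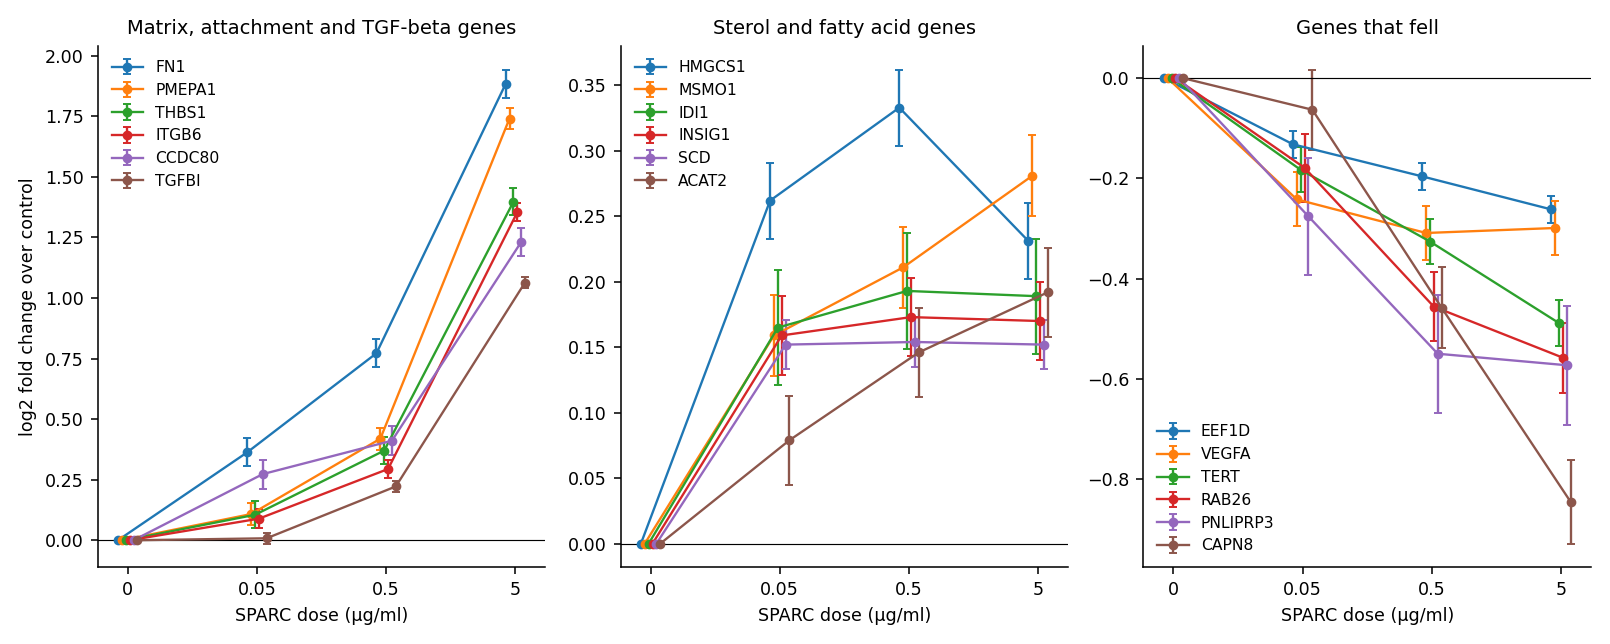
Log2 fold change over control (± SE) at 0, 0.05, 0.5 and 5 µg/ml for 6 genes of the matrix, attachment and TGF-beta (left), 6 of sterol and fatty acid synthesis (middle) and 6 that fell (right); the vertical scales differ, and all doses share the same 5 control samples. In the left panel each gene is higher at 5 than at 0.5 µg/ml, as FN1 at 1.88 and 0.77, while in the middle panel SCD and INSIG1 stay between 0.15 and 0.17 at all 3 doses.

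Against the lower dose, SPARC 0.5 differed from SPARC 0.05 in 41 genes (0.179%), 36 higher and 5 lower. With library sizes only 35 genes differed, 21 of them higher. Without SPARC 0.5 replicate 4 the count was 15, and it was 16 to 25 without SPARC 0.05 replicate 1, 2, 3 or 5 or SPARC 0.5 replicate 5. TGFBI led the genes that were higher (542 ± 9.86 CPM at SPARC 0.5, 467 ± 9.71 CPM at SPARC 0.05; 0.21 ± 0.022, adjusted p = 4.27e-11). PMEPA1, KRT7, AMIGO2, ITGB6 and FN1 were higher by 0.31 ± 0.045, 0.19 ± 0.027, 0.17 ± 0.028, 0.21 ± 0.037 and 0.41 ± 0.058 (adjusted p = 2.05e-05, 0.000124, 0.000124, 0.00101 and 0.00617). TMSB10, the actin-sequestering thymosin, was higher by 0.14 ± 0.024 and PCBP1, an RNA-binding protein, by 0.28 ± 0.049 (adjusted p = 0.000379 and 0.000641). The genes that were lower included CAPN8 (11.9 ± 0.723 CPM at SPARC 0.5, 15.6 ± 0.975 CPM at SPARC 0.05; −0.39 ± 0.081, adjusted p = 0.00617), KLHDC4 (−0.21 ± 0.048, adjusted p = 0.0237) and DDX39B (−0.16 ± 0.037, adjusted p = 0.0409).

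For scale, SPARC 5 and control differed in 2665 genes (11.6%) and SPARC 0.05 and control in 61 (0.266%) in the same fit. Of the 312 genes that rose at SPARC 0.5, 105 were lower at SPARC 0.5 than at SPARC 5, 8 were higher and 199 did not differ past the threshold. Of the 205 that fell, 10 were higher at SPARC 0.5 than at SPARC 5, 10 were lower and 185 did not differ past the threshold. Against SPARC 0.05, 19 of the rises were higher and 3 of the falls were lower at SPARC 0.5. The rises and falls were chosen by these same SPARC 0.5 samples, which tilts the directions of these counts. Over all 22938 genes tested, 36 were higher and 5 lower at SPARC 0.5 than at SPARC 0.05. Against SPARC 5, 341 were higher and 759 lower at SPARC 0.5.

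The authors' deposited table for the same comparison lists 16045 genes and gives an adjusted p under 0.05 to 549 (3.42%), 301 higher and 248 lower. It holds 510 of the 517 genes called here, and 457 were called in both with the same direction, which is 88.4% of the genes called here and 83.2% of those called in the authors' deposited table. In the authors' deposited table FN1 had a log2 fold change of 0.78 (95% interval 0.70 to 0.85), HMGCS1 0.33 (0.27 to 0.39) and TERT −0.34 (−0.43 to −0.24).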

How the data were processed

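RNA sequencing counts of 5 SPARC 0.5 and 5 control samples were compared, in 1 fit with the other 10 samples of the series. The authors deposited whole-number counts per gene; the submitters' processing notes name bcl2fastq, STAR 2.7.9a, featureCounts 2.0.3 from Subread, Salmon 1.5.2, edgeR, limma and the build GRCh38. No source used here says which of these tools made the counts or gives the annotation release and strand setting; counts of overlapping and antisense genes cannot be told apart. The table's 60871 rows hold 60671 identifiers; 168 identifiers stand on 368 rows and each was used once, which removed 0.278 to 0.296% of counts. The authors also deposited a table of log2 fold changes and adjusted p-values for the same comparison, which was only read and counted.

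Genes were filtered with filterByExpr (minimum count 10) and scaled with trimmed means of M values, and group means were tested with edgeR 4.0.16 (quasi-likelihood, robust; R 4.3.3) with Benjamini-Hochberg adjustment over all genes tested; called means an adjusted p under 0.05. The common biological coefficient of variation was 6.68%. Log2 fold changes carry standard errors and 95% intervals from the same fit. Total counts were 31.96 to 50.11 M, and limits from counts cover counting error only. Alternatives used DESeq2 1.42.0, limma-trend (limma 3.58.1), other scalings and filters, only the 2 groups compared, a replicate block, a correction for GC content and length, and each library left out. The test was also run on data simulated from the means and spread of these counts, where 3.01% of calls were false. Replicates differed by more than sampling noise in each of 20 pairs (chi-square per gene 4.55 to 9.39).

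Genes named are the 12 rises and the 12 falls with the smallest p and the 6 largest of each among called genes averaging 5 CPM or more, up to 4 called members of each of 42 gene lists, the 6 genes with the smallest p in each direction against the other 2 doses, and the SPARC family; other list members are examples. A total of 6 genes with clone-based names that met this rule are not named, and some other genes are not reported here. The members and lists were chosen with earlier results of these data known. Promoter windows are RefSeq sequences on GRCh38.p14.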

Additional observations from a re-analysis of the deposited data

Results flagged for a closer look

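In groups of 5 samples, 1 sample was counted as far from the rest where its gap to the nearest other sample was above 0.71 of the range of the group. Chance alone gives this in about 1 in 20 groups, and 7 of the 84 groups examined met it. THBS1 was highest in SPARC 0.5 replicate 5 at 4728 CPM, with a gap of 0.758 of the range. INSIG1 was lowest in the same library at 149.4 CPM (0.863 of the range). HSPA5 was lowest in SPARC 0.5 replicate 1 at 860.6 CPM (0.782), and ANKRD22 was highest there at 5.774 CPM (0.791). Among controls, LTBP2 was lowest in replicate 5 at 95.52 CPM (0.794), SNHG17 was highest in replicate 3 at 123.3 CPM (0.824), and VEGFA was highest in replicate 1 at 179.4 CPM (0.718). Each of these 7 genes kept its call when that library was left out. The cause of these values was not tested.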

How the results depend on the processing

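Of 126 named genes tested, 97 were called, and 55 of these kept their call in each alternative. The other 42 lost it in at least 1, 37 of them with a library left out, 25 with the GC and length correction, 21 with library sizes only, 14 without a filter, 6 with limma-trend and 1 with DESeq2, and none reversed. Of the genes not called, 9 were called under some alternative. Against control, DESeq2 called 802 genes, and leaving out 1 library gave 267 to 608. Against SPARC 5 the range was 850 to 997, and against SPARC 0.05 it was 15 to 52. Against SPARC 0.05, where 41 genes were called, other settings gave 83 with DESeq2, 73 with the GC and length correction, 70 without a filter, 80 with only the 2 groups compared, 66 with the replicate block and 134 with the replicate block and the GC and length correction. The replicate block gave 612 calls against control and 1175 against SPARC 5, beside 517 and 1100 without it. Same-numbered SPARC 0.5 and control samples did not deviate together across genes (correlations of −0.032 to 0.037). Of 5 pairs 1 correlated best with its own number, and the main fit used no pairing. This check cannot show a pairing that moves only part of the genes, and the other doses were not checked. In the simulated data, 50% of changes of 0.2 on the log2 scale were recovered among genes averaging 5 CPM or more. The causes of these differences were not tested.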
